A study of Homo sapiens with 35 samples.

Results

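The genes of integrins and focal adhesion proteins were examined by RNA sequencing in DU145, a human cell line grown from a brain metastasis of prostate cancer. A named set of 35 genes, chosen with earlier results of these data known, was taken. All 35 were present among the 28503 genes of the deposited table. Of these, 17 encode integrin chains and 18 encode proteins that gather at their cytoplasmic side. The cells expressed a short hairpin RNA against ZMYND8 (shZMYND8), against JARID1D (shJARID1D) or, as the control, against luciferase (shLuciferase), with 2 libraries in each group. ZMYND8 binds modified histones, and JARID1D, which the Y-linked gene KDM5D encodes, is a demethylase of histone H3 lysine 4. All groups share the same cell line, and the sources used here give neither the hairpin sequences nor any selection of clones. Separate cultures for the libraries within a group are not stated in the labels. The p-values therefore weigh a difference only against the spread between these libraries, which the test partly shares across genes. That spread may be technical.

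Integrins are cell surface receptors made of an alpha and a beta chain, and the pairing of the chains sets which matrix protein is bound. Talins and kindlins bind the beta chain tails and switch the receptor on. Paxillin, focal adhesion kinase (FAK) and their partners then collect into focal adhesions, where vinculin, alpha-actinin, tensins and filamin tie the receptor to the actin cytoskeleton. Carcinoma cells use these contacts to hold on to matrix, to move and to survive.

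Levels are given as CPM, which are counts scaled to a common library size by the trimmed mean of M values. Differences are log2 fold changes (2 libraries per group) with the standard error (±) that the F statistic of the test implies. Its spread comes from all libraries in one fit and is partly shared across genes, not from the 2 libraries of each group alone. Unless another test is named, every adjusted p is from the quasi-likelihood test of edgeR, adjusted by the Benjamini-Hochberg method over 15867 genes. A gene passed at 0.05. The deposited counts summed to 22925611 to 25001300 per library. ZMYND8 stood at 35.5 and 33.2 CPM in shZMYND8, 69.7 and 63.7 CPM in shJARID1D and 64.7 and 52.7 CPM in shLuciferase, and the shZMYND8 libraries were lower than the control (edgeR adjusted p = 0.00491, log2 fold change -0.77 ± 0.13), a call lost with shZMYND8 replicate 2 left out (adjusted p = 0.0581). KDM5D stood at 55.5 and 59.9 CPM in shZMYND8, 19.6 and 17.9 CPM in shJARID1D and 58.1 and 61.0 CPM in shLuciferase, and the shJARID1D libraries were lower than the control (edgeR adjusted p = 0.000831, log2 fold change -1.67 ± 0.12). The 9 markers listed for a prostate carcinoma line, which take in VIM and CDH2 of mesenchymal cells beside epithelial genes, summed to 2384 to 2667 CPM in shZMYND8, 2275 to 2509.9 CPM in shJARID1D and 2830.0 to 3649.9 CPM in shLuciferase. VIM alone stood at 1284 and 1445 CPM in shZMYND8, 1312 and 1379 CPM in shJARID1D and 1509 and 1788 CPM in shLuciferase, and it passed in no comparison. Of the 6 tested, EPCAM (log2 fold change -1.68, edgeR adjusted p = 0.000546) and KRT19 (log2 fold change -1.16, edgeR adjusted p = 0.00184) were lower in shZMYND8 than in the control and CDH1 was higher (log2 fold change 1.01, edgeR adjusted p = 0.013). KRT8 (log2 fold change -0.86, edgeR adjusted p = 0.0465) and KRT18 (log2 fold change -0.67, edgeR adjusted p = 0.0349) were lower in shJARID1D than in the control. Between the knockdowns, CDH1 and KRT18 were higher and EPCAM and KRT19 lower in shZMYND8 (edgeR adjusted p 0.00183 to 0.0216). Of 9 stromal markers, 7 were under 1 CPM in every library and DCN was at 0, and their sum was 7.47 to 7.58 CPM in shZMYND8, 3.73 to 5.53 CPM in shJARID1D and 2.53 to 3.28 CPM in shLuciferase. The sum of 5 leukocyte markers was 46.0 to 57.2 CPM in shZMYND8, 44.6 to 44.7 CPM in shJARID1D and 36.1 to 42.4 CPM in shLuciferase, with CD3E and MS4A1 at 0 everywhere. CD68 made up most of this sum, at 34.8 to 55.4 CPM over all libraries. The 4 endothelial markers summed to 1.16 CPM in shZMYND8, 0.471 to 0.643 CPM in shJARID1D and 0.468 to 0.514 CPM in shLuciferase. The part of these markers in the differences between groups was not tested. Of the 35 genes, 10 overlap another gene of the table (ITGA1, ITGA7, ITGAE, ITGB4, TLN2, ILK, PXN, VCL, ZYX and ACTN4), and the sources used here do not state strandedness, so their counts are uncertain. In bulk RNA, fewer cells of a type and less RNA per cell cannot be told apart.

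The 250 bases before the transcription start are shown for 4 genes that were higher in shZMYND8 than in shJARID1D under every processing tried at the threshold of 0.05 with no minimum fold change. They are from RefSeq on GRCh38.p14, read 5′ to 3′ on the gene's strand, and 26 of the 35 genes had an entry. ITGA5 and ITGB1 encode the chains of the fibronectin receptor, ITGAV the alpha chain of the vitronectin receptors, and TNS3 a tensin. Capitals mark, on either strand, the GC box (GGGCGG), an AP-1 motif (TGANTCA) and a TEAD motif (GGAATG).
ITGA5, chr12:54419267-54419516, minus strand: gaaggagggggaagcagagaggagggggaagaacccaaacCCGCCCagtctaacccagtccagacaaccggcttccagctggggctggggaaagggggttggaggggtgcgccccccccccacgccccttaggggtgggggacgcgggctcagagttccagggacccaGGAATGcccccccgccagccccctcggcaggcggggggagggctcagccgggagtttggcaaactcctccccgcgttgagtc
ITGB1, chr10:32958231-32958480, minus strand: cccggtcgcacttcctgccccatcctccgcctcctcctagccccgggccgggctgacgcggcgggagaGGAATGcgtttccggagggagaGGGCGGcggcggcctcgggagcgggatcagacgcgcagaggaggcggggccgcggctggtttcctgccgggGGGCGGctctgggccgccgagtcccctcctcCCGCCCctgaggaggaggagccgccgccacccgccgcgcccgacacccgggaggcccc
ITGAV, chr2:186589806-186590055, plus strand: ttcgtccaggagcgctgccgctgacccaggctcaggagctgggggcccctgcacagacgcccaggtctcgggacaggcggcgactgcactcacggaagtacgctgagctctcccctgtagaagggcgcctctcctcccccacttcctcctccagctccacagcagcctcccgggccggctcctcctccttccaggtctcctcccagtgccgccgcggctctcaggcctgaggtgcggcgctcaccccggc
TNS3, chr7:47582587-47582836, minus strand: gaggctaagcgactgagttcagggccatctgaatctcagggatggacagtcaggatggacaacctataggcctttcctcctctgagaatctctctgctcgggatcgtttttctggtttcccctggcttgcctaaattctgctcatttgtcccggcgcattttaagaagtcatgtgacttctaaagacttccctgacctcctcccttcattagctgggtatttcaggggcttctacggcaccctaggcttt
The ITGA5 sequence held 1 GC box and 1 TEAD match, and the ITGB1 sequence held 3 GC boxes and 1 TEAD match. The ITGAV and TNS3 sequences held none of these 3 motifs in this window, nor did that of TLN2, which was also higher under every such processing. An NF-kB match (GGGNNTTCC) can hold a TEAD match on the other strand, and none of the other motifs searched contains another. Over all 27305 promoters of the same length, 42.3% held the GC box, 6.60% the AP-1 motif and 11.9% the TEAD motif, against 16, 2 and 4 of the 26 genes of the set. The NF-kB motif was in 7 of the 26 genes, ITGA5 among them, where it lies over the TEAD match, and in 5.81% of all promoters. The E-box CACCTG was in 5 of the 26 genes and in 17.5% of all promoters. The GC content was 70.0% for ITGA5, 78.4% for ITGB1, 70.8% for ITGAV and 50.4% for TNS3, with a median of 58.0% over all promoters. A match to a motif is a description of the letters and not a binding site.

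The knockdowns were first compared with each other. Of 34 genes of the set that could be tested, 12 differed between shZMYND8 and shJARID1D, beside 15.7% of all genes tested. Since the set was chosen with earlier results of these data known, its shares and medians cannot serve as a test against all genes. The same holds for the counts below. In shZMYND8, 9 were higher (8.67% of all genes) and 3 were lower (7.02% of all genes). The higher genes were the integrin chains ITGB3, ITGA9, ITGA5, ITGAV, ITGB1 and ITGA2 with TNS3, TLN2 and PTK2, and the lower genes were ITGAE, ITGB4 and ILK. The median log2 fold change over the 34 genes was 0.30, against 0.00 over all genes, with 26 positive and 8 negative. The integrin chains gave 8 of the 12 calls among 16 tested, and the cytoplasmic proteins gave 4 among 18. The libraries of shZMYND8 and shJARID1D did not overlap in these 12 genes, which a test on the same libraries had picked. Nor did they overlap in some genes that did not pass, such as ITGA3, FERMT2 and FLNA. The share of all genes without overlap is not given here. ITGB3, ITGA5, ITGAV, ITGB1, TNS3 and TLN2 passed under every alternative tried at this threshold with no minimum fold change, each left-out library included. With shZMYND8 replicate 1 left out 7 genes passed, and with shZMYND8 replicate 2, shJARID1D replicate 1 or shJARID1D replicate 2 left out 6 passed.

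**Figure D1:**
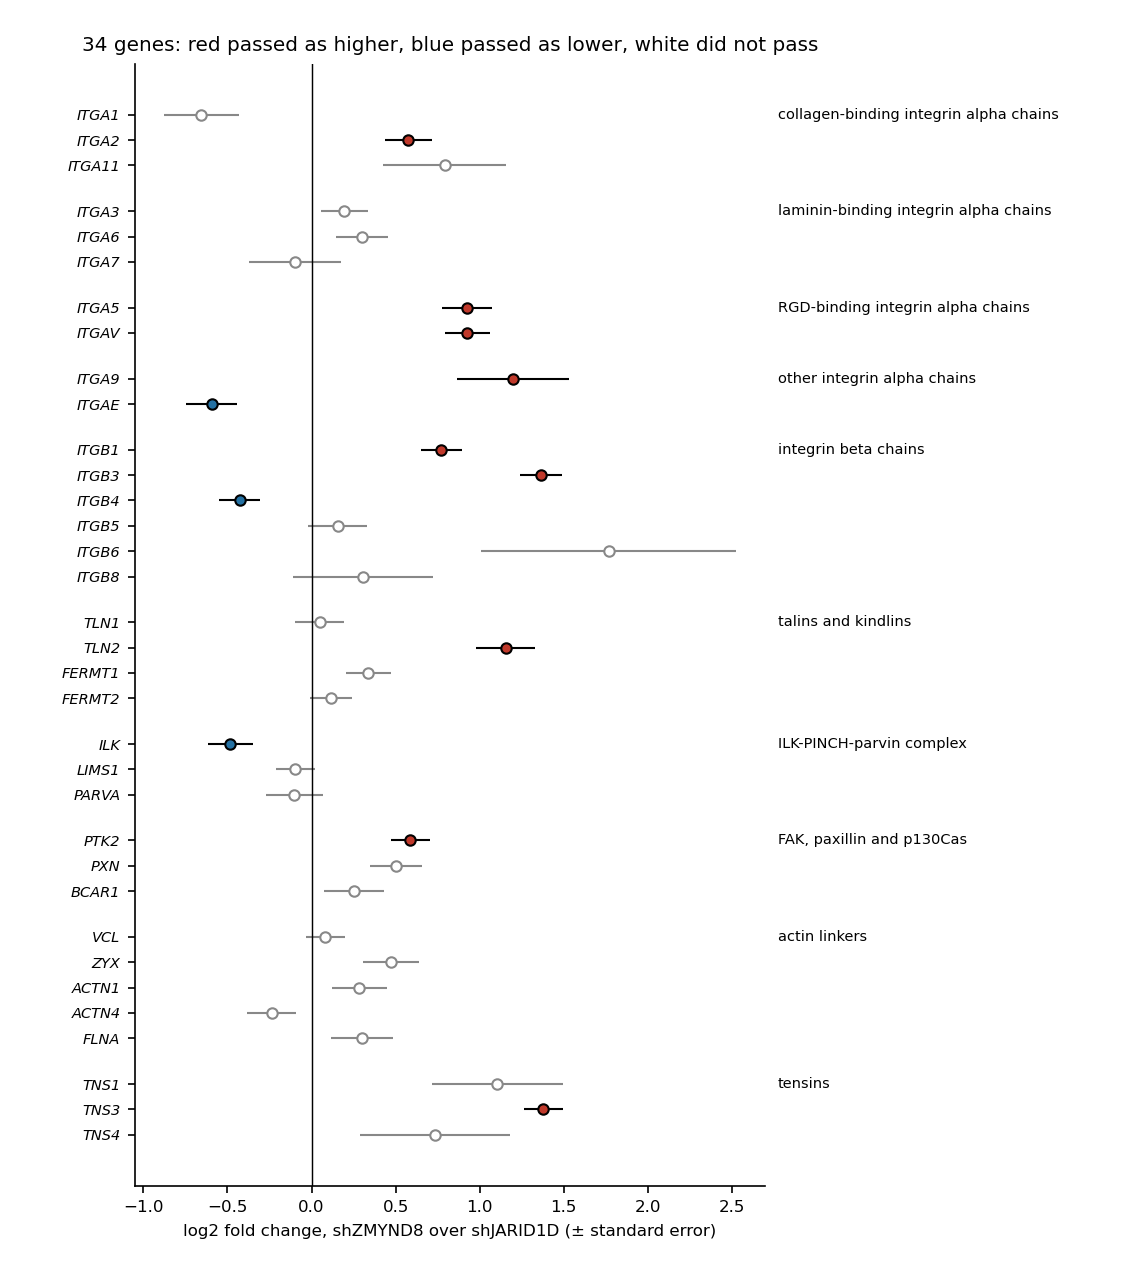
Log2 fold change of shZMYND8 over shJARID1D for the 34 genes tested, grouped by role, with the standard error as a bar. Red points mark the 9 genes that passed as higher in shZMYND8, blue points the 3 that passed as lower, and white points the 22 that did not pass.

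Against the control, 9 of the 34 genes differed in shZMYND8, 8 higher and 1 lower, beside 16.2% of all genes tested (8.89% higher and 7.34% lower). In shJARID1D, 8 of the 34 differed, 1 higher and 7 lower, beside 5.75% of all genes tested (2.96% higher and 2.79% lower). The median log2 fold change over the 34 genes was 0.13 for shZMYND8 and -0.21 for shJARID1D, each against -0.01 to 0.00 over all genes. Both comparisons share the shLuciferase libraries, so the values of each gene are given side by side. The shZMYND8 count was 4 with shZMYND8 replicate 1 left out, 5 with shZMYND8 replicate 2 left out and 14 with shLuciferase replicate 1 left out. The shJARID1D count was 3 without either shZMYND8 library, 5 without shLuciferase replicate 2 and 12 without shLuciferase replicate 1. It was 0 by edgeR without shJARID1D replicate 1 or shJARID1D replicate 2, where 11 and 14 genes had an unadjusted p under 0.05. With all libraries DESeq2 called 12 and limma voom 6 in shJARID1D.

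The integrin beta chains differed between the knockdowns in both directions. ITGB3 and ITGB1 were higher and ITGB4 was lower in shZMYND8 than in shJARID1D. ITGB3, the beta chain of the vitronectin receptor alpha-v beta-3, stood at 48.2 and 50.9 CPM in shZMYND8, 17.9 and 20.6 CPM in shJARID1D and 34.0 and 32.4 CPM in shLuciferase. Both shZMYND8 libraries lay above both control libraries, and both shJARID1D libraries lay below them, with no overlap. ITGB3 was 2.58-fold higher in shZMYND8 than in shJARID1D (edgeR adjusted p = 0.000444, log2 fold change 1.37 ± 0.13). It was higher in shZMYND8 than in shLuciferase (0.58 ± 0.12, adjusted p = 0.0123) and lower in shJARID1D than in shLuciferase (-0.79 ± 0.13, adjusted p = 0.0139). The shZMYND8 call against the control was lost without either shZMYND8 library (edgeR adjusted p 0.0806 to 0.107), and the shJARID1D call without either shJARID1D library (edgeR adjusted p 0.0671 to 0.148). ITGB1, the partner of most alpha chains in the set, stood at 2218 and 2218 CPM in shZMYND8, 1284 and 1312 CPM in shJARID1D and 1967 and 1702 CPM in shLuciferase. The shJARID1D libraries lay below all others, and the shZMYND8 libraries above all others. ITGB1 was 1.71-fold higher in shZMYND8 than in shJARID1D (edgeR adjusted p = 0.00374, log2 fold change 0.77 ± 0.12). Against shLuciferase it was lower in shJARID1D (-0.50 ± 0.12, adjusted p = 0.0434), while shZMYND8 gave 0.27 ± 0.12, adjusted p = 0.151. The shJARID1D call against the control was lost when any library but shLuciferase replicate 2 was left out (edgeR adjusted p 0.0607 to 0.266).

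ITGB4, the beta chain of the laminin receptor alpha-6 beta-4 of hemidesmosomes, ran the other way and stood at 26.3 and 30.1 CPM in shZMYND8, 39.0 and 36.9 CPM in shJARID1D and 52.3 and 52.9 CPM in shLuciferase. The shZMYND8 libraries were the lowest, the shLuciferase libraries the highest, and no groups overlapped. Relative to the control ITGB4 was 1.86-fold lower in shZMYND8 (edgeR adjusted p = 0.0016, log2 fold change -0.90 ± 0.12), a call kept under every alternative at the threshold of 0.05 with no minimum fold change. It was also lower in shZMYND8 than in shJARID1D (edgeR adjusted p = 0.0423, log2 fold change -0.43 ± 0.12), a call lost without either library of shZMYND8 or of shJARID1D (edgeR adjusted p 0.12 to 0.28). For shJARID1D against shLuciferase ITGB4 gave -0.47 ± 0.12, adjusted p = 0.0504, and it passed without shLuciferase replicate 1 (edgeR adjusted p = 0.0339). GALK1, which overlaps ITGB4, gave a log2 fold change of 0.01 in shZMYND8 against shLuciferase (edgeR adjusted p = 0.978).

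The remaining beta chains did not pass. ITGB5, another partner of the alpha-v chain, stood at 62.2 and 73.1 CPM in shZMYND8, 52.6 and 68.8 CPM in shJARID1D and 59.0 and 79.0 CPM in shLuciferase, and its groups overlapped in all 3 comparisons. ITGB8, which pairs with alpha-v to release active TGF-beta, stood at 12.5 and 8.46 CPM in shZMYND8, 8.61 and 8.36 CPM in shJARID1D and 6.09 and 1.63 CPM in shLuciferase. The shLuciferase libraries lay below all others but far apart, and shZMYND8 against shLuciferase gave 1.44 ± 0.44, adjusted p = 0.0518. With all libraries, limma voom (voom adjusted p = 0.0287) and a replicate block (edgeR adjusted p = 0.00568) called ITGB8 higher in shZMYND8, and DESeq2 did not. In shJARID1D it gave 1.14 ± 0.44, adjusted p = 0.157, and passed with a replicate block (edgeR adjusted p = 0.0271). Without shLuciferase replicate 1 ITGB8 gave 2.68 in shZMYND8 and 2.38 in shJARID1D against the control library left. ITGB6, the beta chain of an epithelial TGF-beta activating integrin, had 11 and 12 fragments in shZMYND8, 1 and 4 in shJARID1D and 1 and 3 in shLuciferase. It entered the test through shZMYND8 alone, and neither comparison of shZMYND8 passed (edgeR adjusted p = 0.141 against shJARID1D and 0.0821 against shLuciferase).

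Both alpha chains of the set that bind the RGD sequence of matrix proteins were higher in shZMYND8 than in each of the other groups. ITGA5, the fibronectin receptor chain, stood at 405 and 403 CPM in shZMYND8, 182 and 244 CPM in shJARID1D and 218 and 244 CPM in shLuciferase. The shZMYND8 libraries lay above all others, while those of shJARID1D and shLuciferase overlapped. ITGA5 was 1.90-fold higher in shZMYND8 than in shJARID1D (edgeR adjusted p = 0.00446, log2 fold change 0.93 ± 0.15) and 1.75-fold higher than in shLuciferase (edgeR adjusted p = 0.00678, log2 fold change 0.81 ± 0.15). The second call was lost without shZMYND8 replicate 1 (edgeR adjusted p = 0.0594). In shJARID1D against shLuciferase ITGA5 gave -0.12 ± 0.15, adjusted p = 0.678. ITGAV, the alpha-v chain, stood at 382 and 426 CPM in shZMYND8, 215 and 211 CPM in shJARID1D and 293 and 238 CPM in shLuciferase. The groups did not overlap, with shZMYND8 highest and shJARID1D lowest. ITGAV was 1.90-fold higher in shZMYND8 than in shJARID1D (edgeR adjusted p = 0.00284, log2 fold change 0.92 ± 0.13) and 1.52-fold higher than in shLuciferase (edgeR adjusted p = 0.0138, log2 fold change 0.60 ± 0.13). The call against the control was lost without either shZMYND8 library (edgeR adjusted p 0.0648 to 0.12), and shJARID1D against shLuciferase gave -0.32 ± 0.13, adjusted p = 0.179. The 250 bases shown above for these genes differ in motif content, with a GC box and a TEAD match for ITGA5 and neither for ITGAV.

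**Figure D2:**
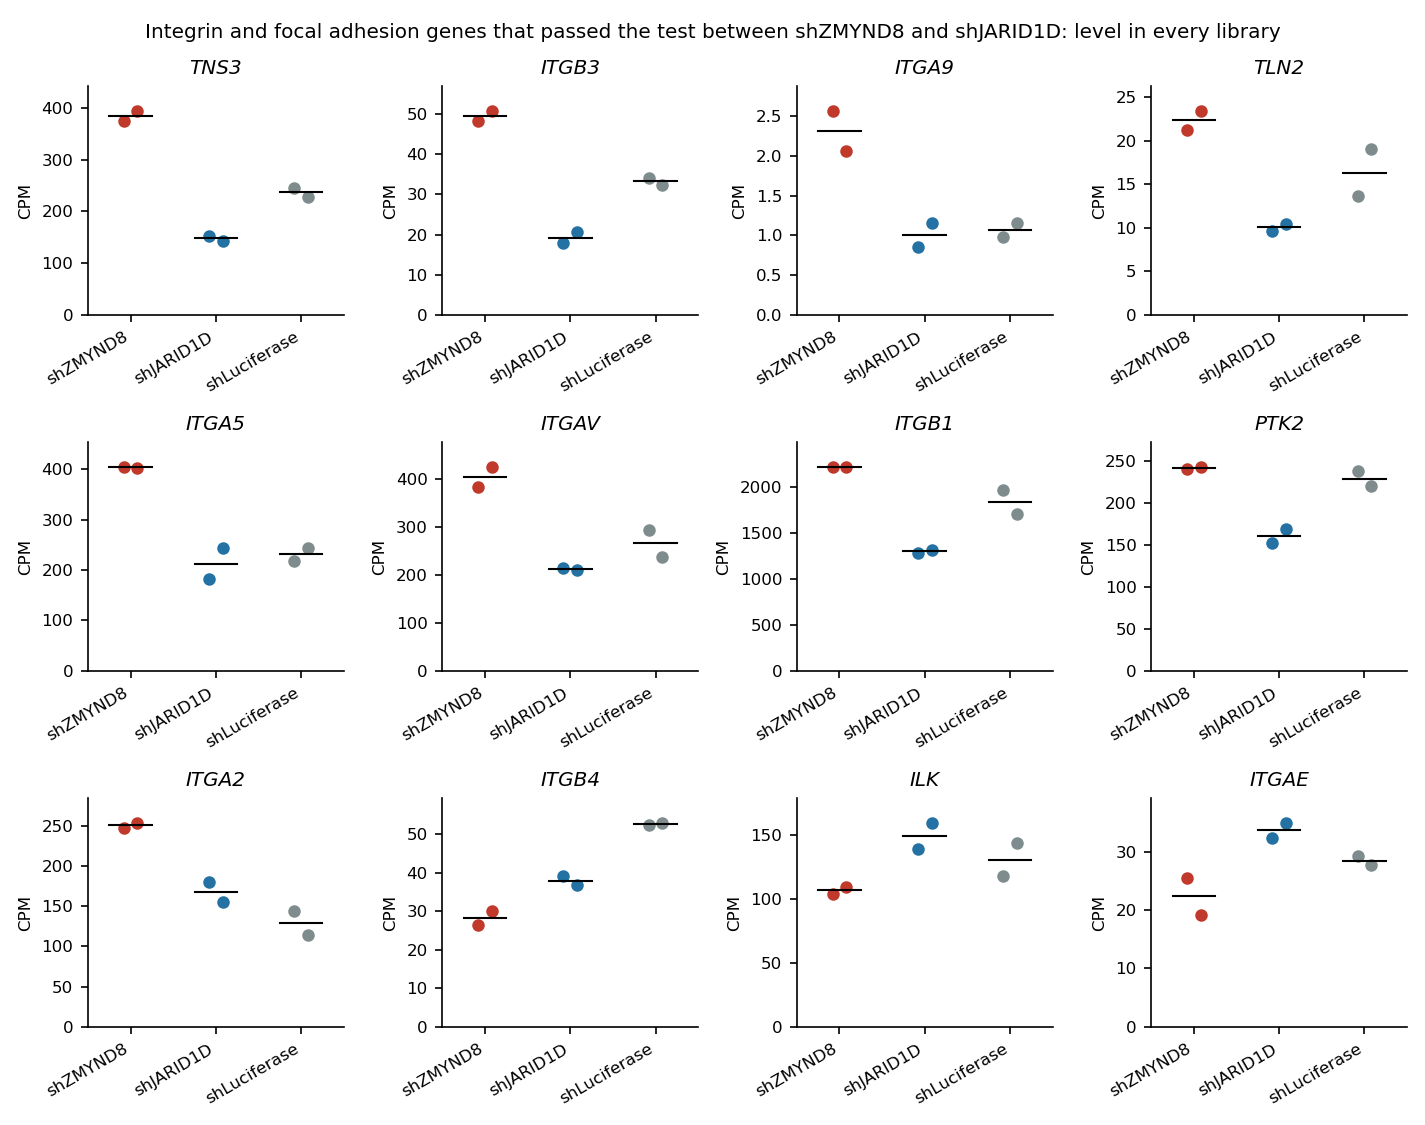
Level in CPM in every library (points, with the mean of the 2 libraries as a line) for the 12 genes that differed between shZMYND8 and shJARID1D, on axes that start at 0. ITGB3, TNS3, ITGAV, ITGB1, TLN2 and PTK2 show shZMYND8 above and shJARID1D below the shLuciferase libraries, while ITGB4, ITGAE and ILK are lowest in shZMYND8.

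The collagen-binding alpha chains had their highest levels in different groups. ITGA2, the alpha chain of the collagen receptor of epithelia and platelets, stood at 247 and 254 CPM in shZMYND8, 180.4 and 156 CPM in shJARID1D and 144 and 114 CPM in shLuciferase. The groups did not overlap, and shZMYND8 was highest and shLuciferase lowest. ITGA2 was 1.94-fold higher in shZMYND8 than in shLuciferase (edgeR adjusted p = 0.00237, log2 fold change 0.96 ± 0.14), a call kept under every alternative at the threshold of 0.05 with no minimum fold change. It was 1.49-fold higher in shZMYND8 than in shJARID1D (edgeR adjusted p = 0.0241, log2 fold change 0.58 ± 0.14), a call lost without either library of shZMYND8 or of shJARID1D (edgeR adjusted p 0.0728 to 0.198). In shJARID1D against shLuciferase ITGA2 gave 0.38 ± 0.14, adjusted p = 0.136, and passed without shLuciferase replicate 1 (edgeR adjusted p = 0.0256). ITGA1, the related collagen and laminin receptor chain, stood at 14.4 and 13.95 CPM in shZMYND8, 25.8 and 18.8 CPM in shJARID1D and 16.2 and 10.1 CPM in shLuciferase, highest in both shJARID1D libraries. Its difference between shZMYND8 and shJARID1D was -0.66 ± 0.22, adjusted p = 0.0737, and it passed as lower in shZMYND8 without either shLuciferase library (edgeR adjusted p 0.0114 to 0.012). Against shLuciferase shJARID1D gave 0.76 ± 0.22, adjusted p = 0.0774, and passed without shLuciferase replicate 1 (edgeR adjusted p = 0.00763).

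ITGA11, a collagen receptor chain best known from fibroblasts, was low and was higher in both knockdowns than in the control. It had 62 and 45 fragments in shZMYND8, 22 and 29 in shJARID1D and 7 in each shLuciferase library, or 2.44 and 1.72 CPM in shZMYND8, 0.943 and 1.46 CPM in shJARID1D and 0.298 and 0.300 CPM in shLuciferase. The log2 fold change over shLuciferase was 2.78 ± 0.44 in shZMYND8 (edgeR adjusted p = 0.00323), a call kept under every alternative at that threshold that tested the gene. Both shLuciferase libraries lay below the level the filter asks for, so ITGA11 entered the test through the knockdowns alone. It was 1.99 ± 0.46 in shJARID1D (edgeR adjusted p = 0.0384), a call lost when any 1 library was left out (edgeR adjusted p 0.0569 to 0.197). The knockdowns did not overlap with each other, but their difference did not pass (0.79 ± 0.36, adjusted p = 0.166). Of 9 stromal markers, 4 were tested in shZMYND8 against shLuciferase, and COL1A1 alone passed, as higher. It had 4.46 and 4.12 CPM in shZMYND8 and 1.79 and 0.942 CPM in shLuciferase (edgeR adjusted p = 0.026, log2 fold change 1.65 ± 0.42). COL3A1 had 18 and 16 fragments in shZMYND8 and 4 and 6 in shLuciferase. In the same order, PDGFRB had 12 and 23 against 7 and 1, and ACTA2 44 and 31 against 20 and 23. DCN was at 0 throughout. ITGA10, the fourth collagen-binding chain, was not tested because the table marks it as not quantified in shLuciferase replicate 2. It had 8 and 15 fragments in shZMYND8, 27 and 24 in shJARID1D and 18 in shLuciferase replicate 1.

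Among the laminin-binding alpha chains, 1 of 3 passed in 1 comparison. ITGA6, the partner of ITGB4 and ITGB1, stood at 184 and 236 CPM in shZMYND8, 151 and 189.7 CPM in shJARID1D and 258 and 269.6 CPM in shLuciferase. The shLuciferase libraries lay above all others, and the libraries of the knockdowns overlapped. ITGA6 was lower in shJARID1D than in the control (edgeR adjusted p = 0.0455, log2 fold change -0.63 ± 0.15), a call lost when any library but shLuciferase replicate 1 was left out (edgeR adjusted p 0.0582 to 0.319). In shZMYND8 it gave -0.33 ± 0.15, adjusted p = 0.177 against shLuciferase. ITGA3, the alpha chain of the receptor for laminin of the basement membrane, stood at 1067 and 1172 CPM in shZMYND8, 899 and 1057 CPM in shJARID1D and 1080.4 and 1316 CPM in shLuciferase, with no comparison past the threshold. ITGA7, the laminin receptor chain of muscle, stood at 3.04 and 2.32 CPM in shZMYND8, 3.38 and 2.36 CPM in shJARID1D and 4.00 and 4.16 CPM in shLuciferase, and the shLuciferase libraries were the highest without a comparison that passed.

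The last pair of alpha chains moved in opposite directions between the knockdowns. ITGA9, whose product binds tenascin and other matrix proteins with ITGB1, stood at 2.57 and 2.06 CPM in shZMYND8, 0.857 and 1.16 CPM in shJARID1D and 0.979 and 1.16 CPM in shLuciferase. The shZMYND8 libraries lay above all others. ITGA9 was 2.29-fold higher in shZMYND8 than in shJARID1D (edgeR adjusted p = 0.0382, log2 fold change 1.20 ± 0.33) and 2.16-fold higher than in shLuciferase (edgeR adjusted p = 0.0473, log2 fold change 1.11 ± 0.33). The first call was lost without either library of shZMYND8 or of shJARID1D (edgeR adjusted p 0.11 to 0.233) and the second when any 1 library was left out (edgeR adjusted p 0.0621 to 0.289), and DESeq2 called neither. ITGAE, the alpha chain of the E-cadherin receptor best known from intraepithelial lymphocytes, stood at 25.4 and 19.2 CPM in shZMYND8, 32.4 and 35.0 CPM in shJARID1D and 29.2 and 27.8 CPM in shLuciferase. The shZMYND8 libraries lay below and the shJARID1D libraries above those of shLuciferase. ITGAE was 1.51-fold lower in shZMYND8 than in shJARID1D (edgeR adjusted p = 0.0273, log2 fold change -0.59 ± 0.15), a call lost without shZMYND8 replicate 2 or either shJARID1D library (edgeR adjusted p 0.102 to 0.217). It overlaps P2RX5, which gave a log2 fold change of 0.40 in the same comparison (edgeR adjusted p = 0.154). Of the 5 leukocyte markers, CD3E and MS4A1 were at 0 in every library. PTPRC had 1 fragment in each shZMYND8 library and 0 elsewhere. CD14 had 24 to 49 fragments and CD68 34.8 to 55.4 CPM over all libraries.

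Of the proteins that switch integrins on, TLN2 differed between the knockdowns. TLN2, the second talin, stood at 21.3 and 23.5 CPM in shZMYND8, 9.60 and 10.5 CPM in shJARID1D and 13.6 and 19.1 CPM in shLuciferase. The groups did not overlap, with shZMYND8 highest and shJARID1D lowest. TLN2 was 2.23-fold higher in shZMYND8 than in shJARID1D (edgeR adjusted p = 0.00355, log2 fold change 1.15 ± 0.18) and lower in shJARID1D than in the control (edgeR adjusted p = 0.0497, log2 fold change -0.70 ± 0.18). The call against the control was lost when any library but shLuciferase replicate 1 was left out (edgeR adjusted p 0.0925 to 0.275). In shZMYND8 against shLuciferase it gave 0.45 ± 0.17, adjusted p = 0.105. A replicate block called TLN2 higher there (edgeR adjusted p = 0.0311), while DESeq2 and limma voom did not. Without shLuciferase replicate 2 TLN2 gave 0.71. TLN1, the talin found in nearly all cells, stood at 835 and 1039 CPM in shZMYND8, 847 and 965 CPM in shJARID1D and 1007 and 1166 CPM in shLuciferase and passed in no comparison. FERMT1, the kindlin of epithelia, stood at 23.4 and 27.01 CPM in shZMYND8, 19.6 and 20.3 CPM in shJARID1D and 31.1 and 35.1 CPM in shLuciferase. The shLuciferase libraries were the highest and the shJARID1D libraries the lowest, without overlap. FERMT1 was 1.66-fold lower in shJARID1D than in the control (edgeR adjusted p = 0.0188, log2 fold change -0.73 ± 0.13), a call lost without either shJARID1D library (edgeR adjusted p 0.104 to 0.165). In shZMYND8 it gave -0.39 ± 0.13, adjusted p = 0.0701 against shLuciferase. A replicate block called FERMT1 lower there (edgeR adjusted p = 0.0295), while DESeq2 and limma voom did not. Without shLuciferase replicate 1 FERMT1 gave -0.48. FERMT2, the widely expressed kindlin, lay between 229 and 284 CPM in all libraries and passed in no comparison.

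ILK, the pseudokinase that joins integrins to parvin, stood at 104 and 109 CPM in shZMYND8, 139 and 159.5 CPM in shJARID1D and 118 and 144 CPM in shLuciferase. Both shZMYND8 libraries lay below all others, and the shJARID1D and shLuciferase libraries overlapped. ILK was 1.40-fold lower in shZMYND8 than in shJARID1D (edgeR adjusted p = 0.0382, log2 fold change -0.48 ± 0.13), a call lost without either library of shZMYND8 or of shJARID1D (edgeR adjusted p 0.0987 to 0.244). Against shLuciferase shZMYND8 gave -0.29 ± 0.13, adjusted p = 0.171, and passed as lower without shLuciferase replicate 1 (edgeR adjusted p = 0.0377). ILK overlaps TAF10, the gene of a transcription factor subunit, which did not pass in shZMYND8 against shJARID1D (log2 fold change -0.23, edgeR adjusted p = 0.244). TAF10 was lower in shZMYND8 than in the control (log2 fold change -0.47, edgeR adjusted p = 0.0304). The other members of the ILK complex passed in no comparison. LIMS1, which encodes PINCH and has near-identical relatives that make its counts uncertain, stood at 38.7 and 41.8 CPM in shZMYND8, 43.1 and 42.9 CPM in shJARID1D and 49.1 and 45.9 CPM in shLuciferase, and PARVA, the parvin, at 11.4 and 15.5 CPM in shZMYND8, 13.9 and 14.9 CPM in shJARID1D and 17.0 and 18.8 CPM in shLuciferase.

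PTK2, the gene of FAK, was lower in shJARID1D than in both other groups. It stood at 240.4 and 243 CPM in shZMYND8, 153 and 169 CPM in shJARID1D and 238 and 220.1 CPM in shLuciferase, and the shJARID1D libraries lay apart from the rest. PTK2 was 1.50-fold higher in shZMYND8 than in shJARID1D (edgeR adjusted p = 0.0104, log2 fold change 0.59 ± 0.12), and 1.42-fold lower in shJARID1D than in the control (edgeR adjusted p = 0.0377, log2 fold change -0.51 ± 0.12). Both calls were lost without either library of shZMYND8 or of shJARID1D (edgeR adjusted p 0.0661 to 0.112 and 0.0795 to 0.292). In shZMYND8 against shLuciferase it gave 0.08 ± 0.12, adjusted p = 0.69. PXN, the gene of paxillin, the scaffold that FAK binds, stood at 161 and 188 CPM in shZMYND8, 122 and 124 CPM in shJARID1D and 156 and 211 CPM in shLuciferase. Its difference between shZMYND8 and shJARID1D was 0.50 ± 0.15, adjusted p = 0.0536. With all libraries PXN passed as higher in shZMYND8 by DESeq2 (DESeq2 adjusted p = 0.0135) and with a replicate block (edgeR adjusted p = 0.0128). Limma voom did not call it. Without either shLuciferase library the log2 fold change stayed at 0.50. For shJARID1D against shLuciferase PXN gave -0.58 ± 0.15, adjusted p = 0.0589 and passed as lower without shLuciferase replicate 1 (edgeR adjusted p = 0.00608). BCAR1, the gene of the FAK substrate p130Cas, stood at 115 and 114 CPM in shZMYND8, 87.8 and 104 CPM in shJARID1D and 85.5 and 128 CPM in shLuciferase and passed in no comparison.

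Among the tensins, which hold integrin tails to actin, TNS3 had the smallest adjusted p of the set in the direct comparison. TNS3 stood at 375 and 395 CPM in shZMYND8, 153 and 143 CPM in shJARID1D and 245 and 229 CPM in shLuciferase. Both shZMYND8 libraries lay above and both shJARID1D libraries below the control libraries, as for ITGB3. It was 2.60-fold higher in shZMYND8 than in shJARID1D (edgeR adjusted p = 0.000367, log2 fold change 1.38 ± 0.12). It was higher in shZMYND8 than in shLuciferase (0.70 ± 0.11, adjusted p = 0.00376), under every alternative at that threshold with no minimum fold change, and lower in shJARID1D than in shLuciferase (-0.68 ± 0.11, adjusted p = 0.0158). The shJARID1D call was lost without either shJARID1D library (edgeR adjusted p 0.124 to 0.128). ITGB3 and TNS3 were the only genes of the 34 that passed in all 3 comparisons. TNS1, the first tensin described, stood at 2.36 and 1.80 CPM in shZMYND8, 0.943 and 0.986 CPM in shJARID1D and 1.53 and 0.771 CPM in shLuciferase. Its difference between shZMYND8 and shJARID1D was 1.105 ± 0.39, adjusted p = 0.0826, and it passed without either shLuciferase library (edgeR adjusted p 0.0357 to 0.039). In shZMYND8 against shLuciferase TNS1 gave 0.85 ± 0.38, adjusted p = 0.162, and its adjusted p was 0.05 without shLuciferase replicate 1. TNS4, a short epithelial tensin that lacks the actin-binding part, stood at 1.03 and 0.902 CPM in shZMYND8, 0.643 and 0.514 CPM in shJARID1D and 0.426 and 0.771 CPM in shLuciferase and passed in no comparison.

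Of 5 actin linkers, only ZYX passed. ZYX, the gene of zyxin, which gathers at stressed actin fibres, stood at 62.9 and 72.8 CPM in shZMYND8, 43.4 and 54.3 CPM in shJARID1D and 34.1 and 45.6 CPM in shLuciferase. The shZMYND8 libraries lay above all others, and the shJARID1D and shLuciferase libraries overlapped. ZYX was 1.70-fold higher in shZMYND8 than in shLuciferase (edgeR adjusted p = 0.0136, log2 fold change 0.77 ± 0.17), a call lost without either shZMYND8 library (edgeR adjusted p 0.0588 to 0.12). Against shJARID1D it gave 0.47 ± 0.17, adjusted p = 0.0823, and passed without either shLuciferase library (edgeR adjusted p 0.0195 to 0.0203). VCL, the gene of vinculin, stood at 482 and 533 CPM in shZMYND8, 472 and 487 CPM in shJARID1D and 455 and 419.6 CPM in shLuciferase, and ACTN1, an alpha-actinin gene, at 384 and 437 CPM in shZMYND8, 302 and 373 CPM in shJARID1D and 292 and 387 CPM in shLuciferase, with no comparison past the threshold. ACTN4, the other nonmuscle alpha-actinin gene, stood at 433 and 483 CPM in shZMYND8, 504 and 576 CPM in shJARID1D and 563 and 713 CPM in shLuciferase. It gave -0.48 ± 0.15, adjusted p = 0.0509 in shZMYND8 against shLuciferase and passed as lower without shLuciferase replicate 1 (edgeR adjusted p = 0.00961). FLNA, the gene of filamin A, stood at 1485 and 1894 CPM in shZMYND8, 1298 and 1446 CPM in shJARID1D and 1722 and 2483 CPM in shLuciferase, highest in shLuciferase replicate 2. Without shLuciferase replicate 1 FLNA passed as lower in shZMYND8 (edgeR adjusted p = 0.0326) and in shJARID1D (edgeR adjusted p = 0.00851) than in the control library left. With all libraries it gave -0.32 ± 0.18, adjusted p = 0.28 in shZMYND8 and -0.62 ± 0.18, adjusted p = 0.0811 in shJARID1D.

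**Figure D3:**
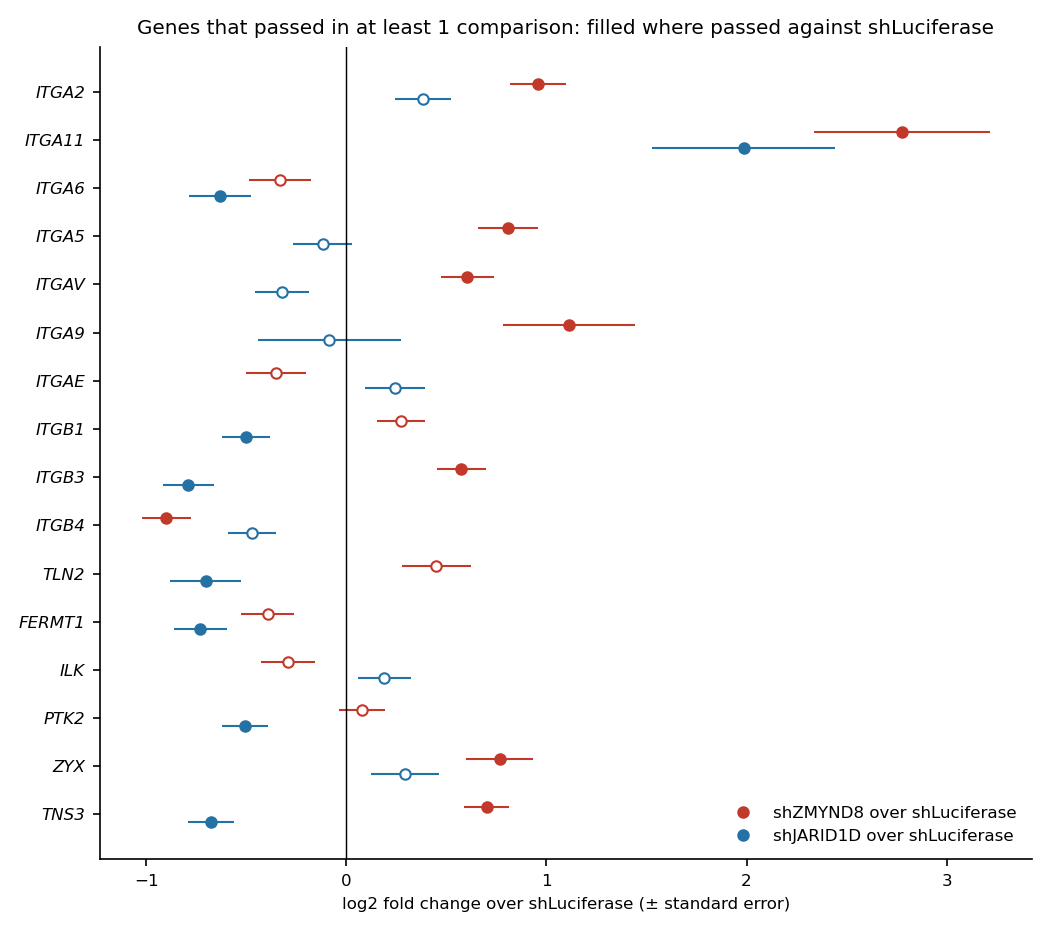
Log2 fold change over shLuciferase, with its standard error, for the 16 genes that passed in at least 1 of the 3 comparisons; shZMYND8 is red and shJARID1D blue, and filled points passed against shLuciferase. ITGB3 and TNS3 are filled on both sides of 0, and ITGA11 is filled for both knockdowns to the right of 0. Both sets of values share the same 2 shLuciferase libraries.

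Ratios between related genes were taken within each library. A ratio of CPM depends on the length of both genes, so only its change across libraries is read. The 6 ratios computed were chosen after the values were seen. ITGB3 over ITGB5, the alternative partners of alpha-v, was 0.775 and 0.696 in shZMYND8, 0.340 and 0.299 in shJARID1D and 0.576 and 0.411 in shLuciferase. ITGB4 over ITGB1, the alternative partners of alpha-6, was 0.0119 and 0.0136 in shZMYND8, 0.0304 and 0.0281 in shJARID1D and 0.0266 and 0.0311 in shLuciferase. The first ratio was highest and the second lowest in shZMYND8, without overlap with the other groups. ITGA2 over ITGA1, the collagen receptor chains, was 17.2 and 18.2 in shZMYND8, 6.98 and 8.29 in shJARID1D and 8.86 and 11.3 in shLuciferase. TLN2 over TLN1 was 0.0254 and 0.0226 in shZMYND8, 0.0113 and 0.0109 in shJARID1D and 0.0135 and 0.0164 in shLuciferase. Both were highest in shZMYND8, again without overlap. ITGA5 over ITGB1, the fibronectin receptor chains, was 0.183 and 0.182 in shZMYND8, 0.141 and 0.186 in shJARID1D and 0.111 and 0.143 in shLuciferase, and shZMYND8 lay within the range of shJARID1D. FERMT1 over FERMT2, the kindlins, was 0.0851 and 0.0952 in shZMYND8, 0.0734 and 0.0814 in shJARID1D and 0.113 and 0.153 in shLuciferase, and was highest in the control libraries. With 2 libraries against 2, an exact two-sided permutation test cannot give a p below 0.333, so no ratio was called.

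**Figure D4:**
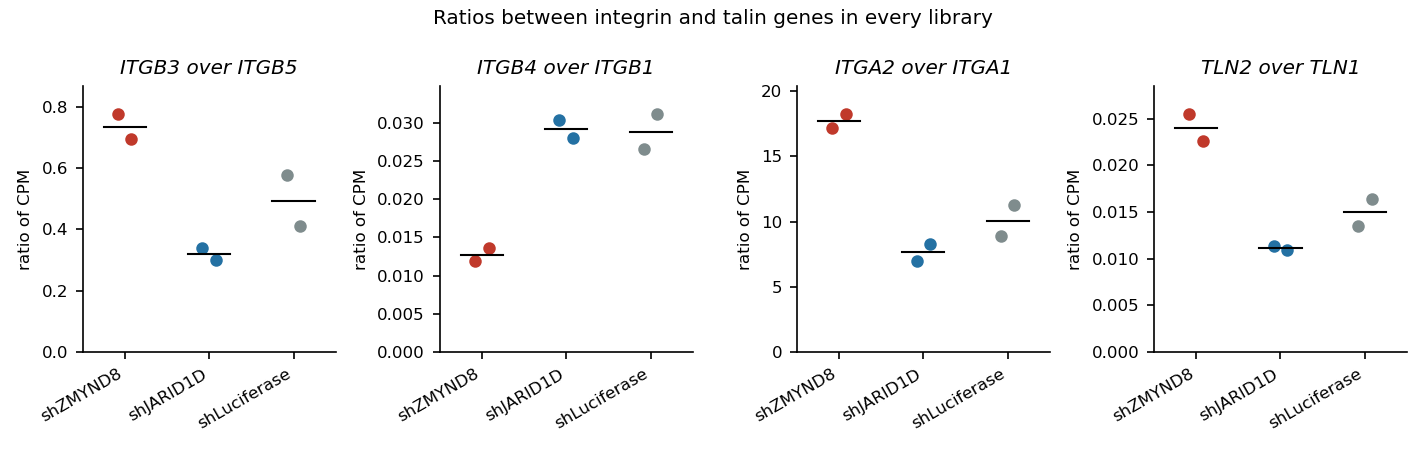
Ratio of CPM between genes in every library (points, with the mean of the 2 libraries as a line) for ITGB3 over ITGB5, ITGB4 over ITGB1, ITGA2 over ITGA1 and TLN2 over TLN1, on axes that start at 0. The shZMYND8 libraries are highest in all of these but ITGB4 over ITGB1, where they are lowest. Not shown are ITGA5 over ITGB1, where shZMYND8 lies within the range of shJARID1D, and FERMT1 over FERMT2, which is highest in shLuciferase.

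A wider list of 65 other focal adhesion genes, also chosen with earlier results known, was then read in the same comparisons. Of these genes, 58 were tested. Between shZMYND8 and shJARID1D, 11 were higher and 3 lower, beside 8.67% higher and 7.02% lower of all genes tested, with a median log2 fold change of 0.17; scaling by library totals alone gave 9 higher and 5 lower. The smallest adjusted p among the higher genes belonged to MYLK, the myosin light chain kinase, with 109 and 125 CPM in shZMYND8, 59.6 and 62.1 CPM in shJARID1D and 144 and 140.0 CPM in shLuciferase (edgeR adjusted p = 0.00167, log2 fold change 0.94 ± 0.12). Next came ASAP1, a GTPase activating protein of focal adhesions (0.63 ± 0.12, adjusted p = 0.0102), ACTN2, a muscle alpha-actinin (1.98 ± 0.43, adjusted p = 0.0148), and ENAH, an actin regulator (0.58 ± 0.13, adjusted p = 0.0203). The lower genes were ROCK1, a kinase that drives contraction (-0.54 ± 0.13, adjusted p = 0.0223), VASP, which speeds actin assembly (-0.63 ± 0.16, adjusted p = 0.0268), and CRKL, an adaptor that binds p130Cas (-0.42 ± 0.12, adjusted p = 0.0429). Of these calls, 2 were left without shZMYND8 replicate 1 and 1 without shZMYND8 replicate 2, shJARID1D replicate 1 or shJARID1D replicate 2.

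Against shLuciferase, 10 of the 58 were higher in shZMYND8 and 7 lower, beside 8.89% and 7.34% of all genes tested, with a median of 0.04; upper-quartile scaling gave 12 higher and 5 lower. PTK2B, the FAK relative PYK2, stood at 35.3 and 26.6 CPM in shZMYND8, 21.1 and 18.0 CPM in shJARID1D and 13.9 and 11.2 CPM in shLuciferase, with shZMYND8 highest and shLuciferase lowest (edgeR adjusted p = 0.0017, log2 fold change 1.30 ± 0.18). Of the adaptors, LPXN, a paxillin relative (1.01 ± 0.18, adjusted p = 0.0056), NEDD9, a p130Cas relative (1.93 ± 0.43, adjusted p = 0.0147), and TNS2, another tensin (0.97 ± 0.22, adjusted p = 0.0158), were also higher. NEDD9 entered the test through the knockdowns alone, since both shLuciferase libraries lay below the level the filter asks for. MYL12B, a myosin light chain (-0.63 ± 0.12, adjusted p = 0.00674), VASP (-0.69 ± 0.16, adjusted p = 0.0173), ITGB1BP1, which competes with talin for the beta-1 tail (-0.46 ± 0.11, adjusted p = 0.019), and FHL2, a LIM domain protein (-0.57 ± 0.14, adjusted p = 0.024), were lower. The count of 17 fell to 2 without shZMYND8 replicate 1 and 3 without shZMYND8 replicate 2, and was 10 without shJARID1D replicate 1 and 9 without shJARID1D replicate 2.

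In shJARID1D against shLuciferase, 0 of the 58 were higher and 3 were lower, beside 2.96% and 2.79% of all genes tested, with a median of -0.10; upper-quartile scaling and library totals alone each gave 1 higher and 2 lower. MYLK was 2.33-fold lower (edgeR adjusted p = 0.00333, log2 fold change -1.22 ± 0.12), and both shJARID1D libraries lay below all others. The other genes, named after their values were seen, were GIT2, a scaffold that binds paxillin (-0.54 ± 0.11, adjusted p = 0.0269), and FHL2 (-0.57 ± 0.14, adjusted p = 0.0483). DESeq2 called 8, and 20 of the 58 had an unadjusted edgeR p under 0.05. The count was 1 without shZMYND8 replicate 1, shZMYND8 replicate 2 or shJARID1D replicate 2, 0 without shJARID1D replicate 1 (12 with an unadjusted edgeR p under 0.05) and 11 without shLuciferase replicate 1.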

How the data were processed

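Total RNA of DU145 cells was sequenced in 6 libraries, 2 for each of shZMYND8, shJARID1D and shLuciferase; the other 29 samples of the series, from chromatin immunoprecipitation, were not analysed here. The headers of the deposited table name counts. These were assumed to be expected counts, that is fragments estimated per gene by the authors' software, and with another unit the test would change. Per the submitters' processing notes, the build was hg19 and the tools were Cuffdiff, edgeR 3.12.0, Bowtie 1.1.2 and TopHat2 2.0.12; the sources used here name no annotation. The columns named Rac7_KO were taken as shZMYND8, assuming that Rac7 stands for RACK7, which a label of the series gives beside ZMYND8. The 18 columns of variances were not used. The status marks served to leave out 60 genes not quantified in at least 1 library, ITGA10 among them. The deposited counts carry a scaling, with a single fragment worth 0.8815 to 1.1602, and 20734699 to 27439989 fragments per library.

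Counts were rounded, and edgeR 4.0.16 under R 4.3.3 tested each gene (quasi-likelihood F test, factors from the trimmed mean of M values, filterByExpr with a minimum count of 10, group only, all libraries in one fit). The Benjamini-Hochberg method was applied over 15867 of 28443 genes, with a threshold of 0.05. Residual degrees of freedom were 3, and the common biological coefficient of variation was 12.3%. The members, the lists and the tests were chosen with earlier results of these data known. Named were all members, and of the other focal adhesion genes the 4 with the smallest adjusted p in each direction in both shZMYND8 comparisons. Alternatives were other scalings, filters and thresholds, DESeq2 1.42.0, voom of limma 3.58.1, a replicate block, a fit without the third group, the deposited scaling undone, unquantified genes kept at 0, and each library left out. The scripts were tested on simulated data. The level of 1 marker is not reported here. Sequences are from RefSeq on GRCh38.p14. Tables and figures were made with Python 3.11.15, pandas 2.3.3 and matplotlib 3.10.9.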

Additional observations from a re-analysis of the deposited data

How the results depend on the processing

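Leaving out each library in turn gave 6 to 16 of the set for shZMYND8 against shJARID1D, 4 to 14 for shZMYND8 against shLuciferase and 0 to 12 for shJARID1D against shLuciferase, and 1 to 20, 2 to 15 and 0 to 11 of the other focal adhesion genes in the same order. Those fits take the spread of a lone library from the remaining groups. With no filter on low counts the set gave 7 for shZMYND8 against shJARID1D and 2 for shJARID1D against shLuciferase, and the other genes gave 6, 9 and 1. At an adjusted p of 0.01 the set gave 6, 5 and 0 by edgeR, where 15 genes of the last comparison had an unadjusted p under 0.05, and the other genes gave 1, 3 and 1. With a log2 fold change of at least 1 the set gave 4, 2 and 1, and the other genes 1, 5 and 1. For shJARID1D against shLuciferase, upper-quartile factors and library totals alone each gave 5 of the set, a fit of only the groups compared gave 3 of the set and 1 of the other genes, and DESeq2 called 8 of the other genes. For shZMYND8 against shLuciferase the fit of only those groups gave 10 of the other genes. Over all genes tested, same-numbered libraries deviated together weakly in every pair of groups (correlations across genes of 0.0969, 0.0925 and 0.170). Within the set, several genes had replicate 2 above replicate 1 in every group, such as ITGA3, ITGB5, ACTN4 and FLNA. ITGA1 and ITGB8 had it below in every group, and others, such as ITGB3 and TNS3, changed order between groups. The main fit did not pair the libraries, so a shift shared by same-numbered libraries stays in its spread. With a replicate block the set gave 15 for shZMYND8 against shJARID1D, 15 for shZMYND8 against shLuciferase and 13 for shJARID1D against shLuciferase, and the other genes gave 15 for the last. The cause of these shifts was not tested. Of the values of single genes that had passed, 391 kept their side of the threshold, 98 lost it and 0 turned in direction. Of those that had not passed, 54 gained a call and 38 turned in direction. Library totals alone gave 0.0023 for ITGA9 in shJARID1D against shLuciferase, 0.0086 for ITGB5 in shZMYND8 against shLuciferase (upper-quartile factors 0.0046) and -0.0023 for TLN1 in shZMYND8 against shJARID1D. In shJARID1D against shLuciferase ACTN1 gave 0.038 with upper-quartile factors, 0.078 with library totals and 0.013 with a mean count of at least 50, and TNS4 gave 0.00085, 0.043 and, with limma voom, 0.0040. With libraries left out the log2 fold changes spanned 0 in shZMYND8 against shJARID1D for ITGA7 (-0.34 to 0.19), ITGB5 (-0.019 to 0.36), ITGB8 (-0.0057 to 0.56), TLN1 (-0.12 to 0.20) and PARVA (-0.34 to 0.10). They did so in shZMYND8 against shLuciferase for ITGA1 (-0.20 to 0.48), ITGA3 (-0.24 to 0.047), ITGB5 (-0.23 to 0.19), PXN (-0.28 to 0.16) and BCAR1 (-0.16 to 0.41). In shJARID1D against shLuciferase they did so for ITGA5 (-0.34 to 0.080), ITGA9 (-0.31 to 0.12), ITGB5 (-0.39 to 0.038), ITGB6 (-0.91 to 1.48), FERMT2 (-0.100 to 0.17), BCAR1 (-0.42 to 0.16), ACTN1 (-0.20 to 0.20), TNS1 (-0.67 to 0.32) and TNS4 (-0.41 to 0.44). Of the 34 genes of the set tested ITGB6 had the fewest fragments, with 1 to 12 fragments per library.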
